A study of Rattus norvegicus with 12 samples.

Results

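Combined removal of the testes and a high dose of oestrogen was compared with vehicle treatment in the rat ventral prostate, using all 6 arrays that the labels assign to these groups, 3 each, out of 12 in the series. Every probe set with 1 gene symbol entered, which gave 14506 genes. The series measured gene expression on Affymetrix arrays in 4 groups of male Wistar rats, 90 days old at treatment, whose ventral prostates were removed 3 days later. In the combined group the testes were removed through the scrotum, with ketamine at 150 mg/kg plus xylazine at 10 mg/kg as anaesthetics, and a single dose of 25 mg/kg 17β-estradiol was given in corn oil. Control rats received vehicle alone, with no operation named for them, although their source label reads no-treatment. The remaining groups, used here only for comparison, were castrated without estradiol or given estradiol while intact. No sham operation is named in the labels, so against control the effects of the operation and its anaesthetics cannot be told apart from testis loss; the added estradiol is set apart only by the comparison with castration alone. The labels do not tie arrays to animals, and p-values reflect only the spread among these samples, part of which may be technical.

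The ventral prostate is a secretory gland whose luminal epithelial cells depend on androgen from the testes. Androgen binds its receptor in these cells, keeps them alive and drives the synthesis and export of large amounts of secreted protein. Without androgen the epithelium stops secreting, many cells die by apoptosis, and phagocytes clear the debris. A high dose of oestrogen lowers testicular androgen output through the pituitary and also acts on oestrogen receptors in the gland itself.

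Values are the deposited levels, read as log2, so a difference of 1 corresponds to 2-fold. Medians of the 6 arrays lay between 5.54 and 5.62 and their SDs between 2.24 and 2.27. The leading principal component of the 6 arrays held 67.3% of the variance and placed the controls between -26.2 and -21.3 and the combined arrays between 17.5 and 28.3. Epithelial markers were present on every array, with a mean level of 24 luminal markers between 8.80 and 8.92 in controls. Precision was limited by the 3 arrays per group, and the median standard error of a difference was 0.105.

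Of the 14506 genes, 2871 (19.8%) differed between castration plus estradiol and control by limma at an adjusted p under 0.05, and the terms rose and fell are used for these genes alone. In all, 1587 genes rose (10.9%) and 1284 fell (8.85%). Changes of at least 2-fold were found in 411 genes (2.83%), of which 210 rose (1.45%) and 201 fell (1.39%). The arrays of both groups did not overlap for 5357 genes (36.9%). The median difference over all genes was 0.036. When array medians were brought to a common value, the split turned to 1173 genes that rose and 1594 that fell, so the balance of rises and falls is not fixed by these data. The count was 1679 without combined array 1, 1827 without control array 2 and 627 when all 12 arrays shared a single estimate of the spread. Among the 411 genes changed at least 2-fold, combined array 2 lay nearest the control mean for 280 (68.1%), combined array 1 for 66 and combined array 3 for 65.

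**Figure D1:**
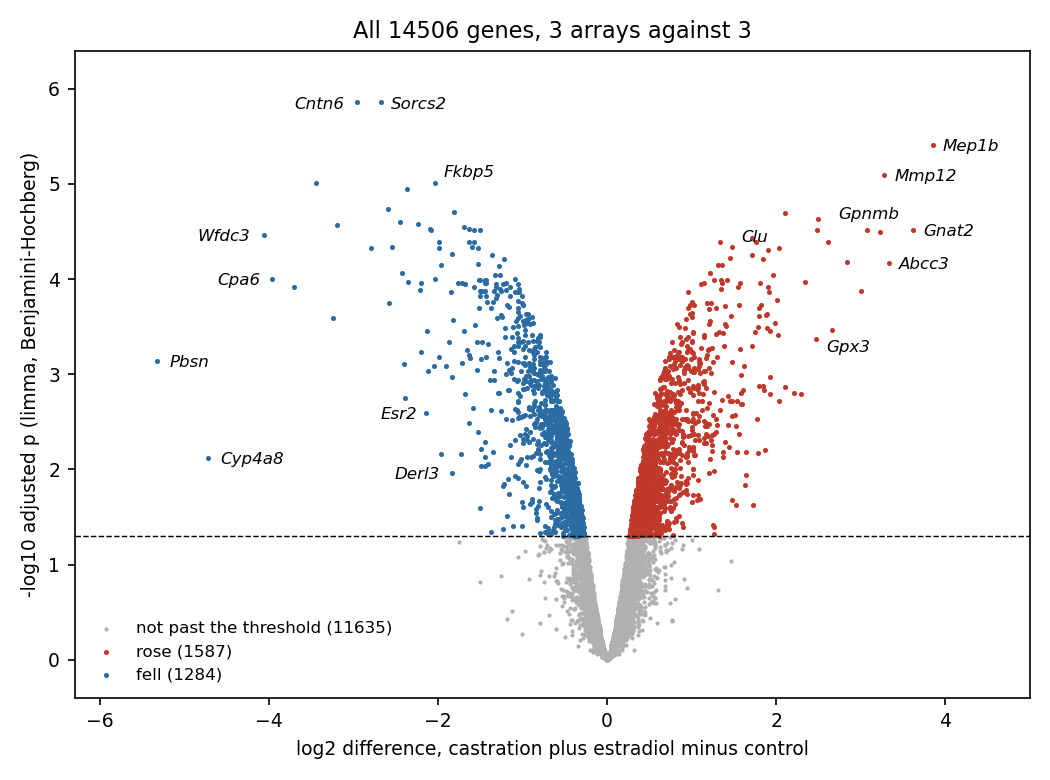
Each point is 1 of 14506 genes, with the log2 difference (castration plus estradiol minus control, 3 arrays each) on the x axis and -log10 of the limma adjusted p on the y axis. Red points rose (1587) and blue points fell (1284); the dashed line marks an adjusted p of 0.05, and Pbsn at -5.32 and Mep1b at 3.85 lie at the outer edges.

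The gene with the largest fall was Pbsn, which encodes probasin, an androgen-driven secreted protein of the rat prostate. Its levels were 10.50, 11.47 and 11.63 in controls and 5.31, 7.45 and 4.88 after castration plus estradiol. The groups did not overlap, and combined array 2 was the highest of the treated arrays. The difference was -5.32 ± 0.60 (SE), a 40-fold fall (adjusted p = 0.000728). The Pbsn promoter is shown because this fall is the largest in the comparison and because probasin is a standard androgen target. The 250 bases before the annotated start, from RefSeq on GRCr8 at chrX:45807984-45808233 on the minus strand, are given with the match to TGTTCT, one arm of the androgen response element, in capitals.
Pbsn: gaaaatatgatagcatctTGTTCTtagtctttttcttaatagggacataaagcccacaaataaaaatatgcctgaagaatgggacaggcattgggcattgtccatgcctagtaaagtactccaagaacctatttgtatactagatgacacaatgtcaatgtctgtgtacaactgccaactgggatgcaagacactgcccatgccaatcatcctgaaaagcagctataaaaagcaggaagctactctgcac
The match began 232 bases before the start. TGTTCT was found on either strand in 15.5% of the 11968 promoters of tested genes, in windows of 250 bases before to 50 after the start. It was present in 7 of 20 promoters of ventral prostate secretory genes (35%) and in 1 of 21 promoters of androgen receptor target genes (4.76%). The match did not sort genes by response. It was in 13.2% of promoters of all genes that fell and 12.5% of those that rose. Among secretory genes it was in 1 of 4 promoters of those that fell and 1 of 4 of those that rose. The full element, AGAACA and TGTTCT with 3 bases between, which contains TGTTCT, was found in 0 of the 11968 windows.

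Other steep falls involved enzymes, adhesion molecules and small secreted proteins. Cyp4a8, a fatty acid hydroxylase, had levels of 6.19, 10.39 and 9.59 in controls and 3.81, 4.38 and 3.83 in the combined group. Control array 1 was far below the other controls, though still above all treated arrays. The difference was -4.72 ± 0.90 (adjusted p = 0.00757), and this call ended with an intensity trend in the variance model (adjusted p = 0.0546). Wfdc3, a small secreted protein of the whey acidic protein family, fell from 11.55, 11.45 and 11.37 to 7.24, 6.96 and 8.0, a difference of -4.06 ± 0.23. Cpa6, a carboxypeptidase, fell by 3.97 on the log2 scale, and Neto2, an auxiliary subunit of glutamate receptors, by 3.44. The remaining falls of this rank were Oas1k of the oligoadenylate synthetase family (-3.20), the adhesion molecule Cntn6 (-2.96), the lysosomal membrane protein Lamp3 (-2.79), the sorting receptor Sorcs2 (-2.68), Tcerg1l (-2.59), the L-amino acid oxidase Lao1 (-2.58) and Lyzl6, a lysozyme-like protein (-2.55). Cntn6 and Sorcs2 were the most tightly measured of these. Cntn6 stood at 7.30, 7.40 and 7.29 in controls against 4.36, 4.42 and 4.33, and the adjusted p was 1.39e-06 for both genes, the smallest in the comparison.

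The largest rise was in Mep1b, which encodes the beta subunit of the metalloprotease meprin. Its levels were 5.63, 5.75 and 5.46 in controls and 9.42, 9.71 and 9.27 in the combined group. The groups did not overlap, and the 14.4-fold difference (3.85 ± 0.13, adjusted p = 3.86e-06) was many times the spread within either group. Gnat2, the alpha subunit of cone transducin, rose by 3.62 ± 0.20 from 4.88, 4.49 and 5.14 to 8.74, 8.51 and 8.11. Abcc3, an export pump for conjugated organic anions, rose by 3.33 ± 0.22, and Atp6v1c2, an isoform of a vacuolar proton pump subunit, by 3.08 ± 0.17. Inmt, an N-methyltransferase, rose by 3.00 ± 0.24, followed by Lrrc34 (2.84), the adaptor Blnk (2.66), the aspartyl protease Bace2 (2.50), the membrane-type metalloprotease Mmp15 (2.48) and the extracellular glutathione peroxidase Gpx3 (2.47). Mmp12 and Gpnmb, both abundant in macrophages, rose by 3.28 and 3.23 and are described with the phagocyte genes. These 24 genes were chosen for size and for groups that do not overlap, so the lack of overlap is no result about them.

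**Figure D2:**
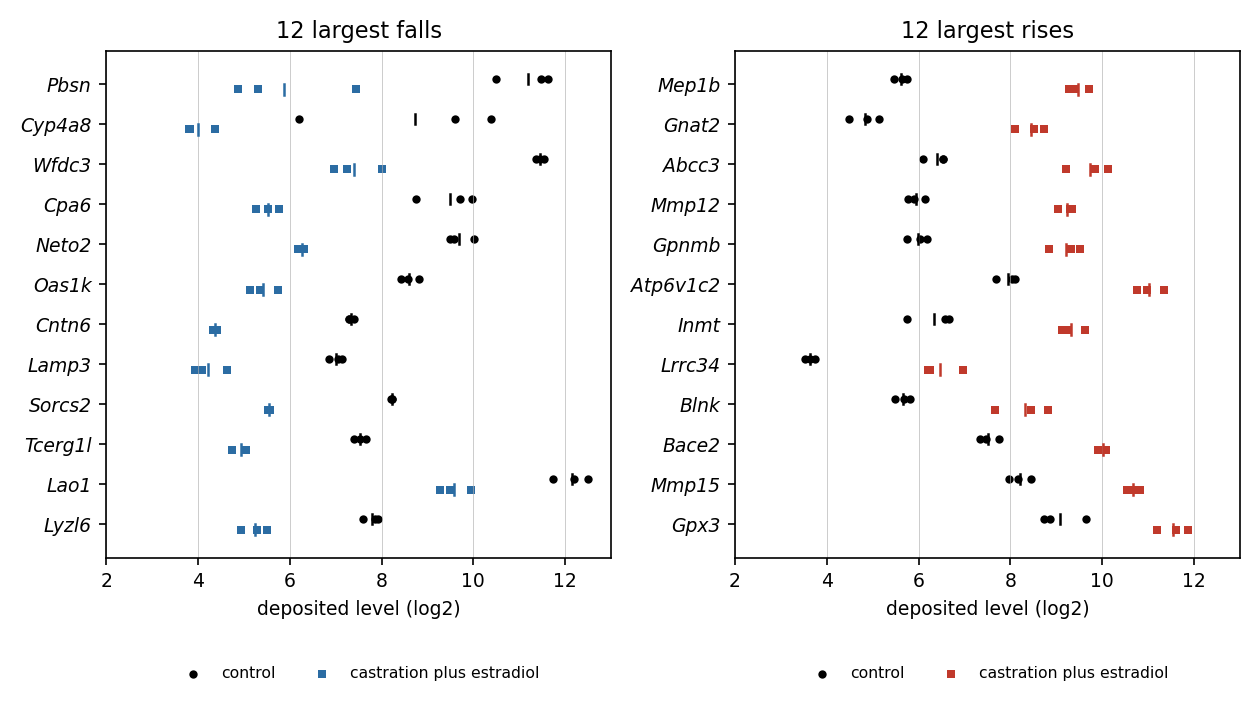
Deposited log2 level on each array for the 12 largest falls (left) and the 12 largest rises (right), with control arrays as black circles, combined arrays as coloured squares and a bar at each mean of 3. The groups are apart for each gene shown; the control spread is widest for Cyp4a8, from 6.19 to 10.39.

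Secretory products did not all move with probasin. Of 23 measured secretory proteins of the ventral prostate, 5 fell and 4 rose, with a median difference of -0.16 against 0.036 for all genes. The androgen-regulated protein Andpro fell from 12.83, 12.71 and 12.66 to 11.84, 11.03 and 11.56 (-1.26 ± 0.18, adjusted p = 0.00242). Azgp1, a zinc-binding glycoprotein of secretions, went the other way, from 6.32, 6.07 and 5.87 to 7.71, 8.09 and 8.44 (1.99 ± 0.19). Scgb2a1, a secretoglobin chain of prostatein, the main secreted protein of this lobe, stood at 12.86, 12.84 and 12.88 against 12.72, 12.68 and 12.70. These arrays did not overlap, but the difference of -0.16 missed the threshold (adjusted p = 0.201), at a level close to the highest value on any array, 13.4. Apoe rose by 0.77 and the tissue kallikrein Klk1 fell by 0.45 on the log2 scale. In the fit of all 12 arrays 1 secretory gene rose and 1 fell.

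Among 26 androgen receptor targets 8 fell and 4 rose, with a median of -0.10. The co-chaperone Fkbp5, which androgen and glucocorticoid receptors both induce, was at 10.65, 10.73 and 10.68 in controls and 8.72, 8.56 and 8.66 in the combined group. Its difference of -2.04 ± 0.08 (adjusted p = 9.80e-06) exceeded the range within either group by a wide margin. Tsc22d3, a leucine zipper protein shared with the glucocorticoid response, fell by 1.43, as did Acsl3, which activates long-chain fatty acids, and the transcription elongation factor partner Eaf2 fell by 1.03, all on the log2 scale. Members that rose included Ndrg1, a growth arrest gene, which went from 7.49, 7.89 and 7.64 to 9.48, 9.0 and 9.68 (1.71 ± 0.18), and the protease Adamts1 (1.17 ± 0.20). Glucocorticoid targets likewise divided, since Fkbp5 and Tsc22d3 fell while Sgk1 (0.78), Errfi1 (0.95) and the metallothionein Mt1 (0.95) rose.

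Genes of the neighbouring accessory glands, listed because seminal vesicle tissue lies beside the prostate, had mean levels of 4.74 to 4.92 in controls and 4.45 to 4.50 in the combined group. Of 28 measured, 6 fell (21.4%, against 8.85% of all genes) and 0 rose by limma, and 7 had an unadjusted p under 0.05. The median difference of the list was only -0.026. Most members were dim, and 3 remained when dim genes were left out. Wfdc3 (-4.06), Wfdc5 (-1.35) and the kallikrein Klk1c12 (-1.63) fell most. The share of accessory gland tissue in each sample was not tested.

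Receptors for steroid and pituitary hormones gave mixed calls. Esr2, the oestrogen receptor found in ventral prostate epithelium, had levels of 8.90, 8.93 and 7.64 in controls and 6.30, 6.61 and 6.14 after castration plus estradiol. Control array 3 was the lowest control but lay above the treated arrays, and the difference was -2.14 ± 0.32 (adjusted p = 0.00255). Esr1, the oestrogen receptor of the stroma, was measured by 2 probe sets with differences of -0.13 and 0.16, neither past the threshold. Pgr, the progesterone receptor, stood at 3.33 to 3.51 on all 6 arrays (-0.01, adjusted p = 0.972). The prolactin receptor Prlr fell from 10.51, 10.30 and 10.31 to 8.95, 9.29 and 9.24 (-1.21 ± 0.12). Nr3c2, the mineralocorticoid receptor, rose by 0.63 ± 0.10. The glucocorticoid receptor Nr3c1 rose by 0.36 (adjusted p = 0.0345), a call lost without control 2, control 3, combined 1 or combined 3 (adjusted p of 0.08 to 0.119), and also with centred medians or all probe sets. Of 28 receptors and steroid enzymes, 4 rose and 4 fell (14.3% each), not far from the 10.9% and 8.85% of all genes. This count of 8 became 5 without control 2, combined 1 or combined 3.

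Oestrogen-responsive genes divided evenly, with 5 of 25 rising and 5 falling, a count of 10 that dropped to 5 without combined array 1 and in the fit of all 12 arrays. The rises were led by Gpx3, Krt19 (1.82) and the carbonic anhydrase Car12. Car12 levels were 5.56, 5.75 and 6.09 in controls and 7.21, 6.86 and 7.01 in the combined group, a difference of 1.23 ± 0.15. The cell cycle regulator Ccnd1 fell by 0.81 and Prlr by 1.21 on the log2 scale. Vegfa, an endothelial growth factor, fell by 0.44 (adjusted p = 0.0136), which became 0.0502 without control 2 and 0.0526 without combined 1. The oestrogen response element, GGTCA and TGACC with 3 bases between, was found on either strand in 3 of 11968 promoter windows (0.0251%) and in 0 of 22 windows of this list.

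Genes for folding secreted proteins in the endoplasmic reticulum fell in large part. Of 35 measured genes of folding and the unfolded protein response, 29 fell (82.9%, against 8.85% of all genes) and 0 rose by limma, with 31 at an unadjusted p under 0.05. The median difference was -0.87. Counts stayed between 25 and 28 when any single array was left out, and 18 fell in the fit of all 12 arrays. Median shifts of the list from the control mean were -0.91, -0.78 and -0.98 on combined arrays 1, 2 and 3, so array 2 was again the mildest.

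Among the folding factors, Creld2 had levels of 10.20, 10.05 and 9.71 in controls and 8.11, 8.48 and 7.74 in the combined group. It fell 3.67-fold (-1.87 ± 0.19, adjusted p = 0.00046). Sdf2l1, which works with the chaperone Hspa5, fell by 1.82 on the log2 scale, and Derl3, which helps extract misfolded proteins for degradation, by 1.83. Fkbp11, a prolyl isomerase, fell by 1.51, the chaperone Hyou1 by 1.30, the stress-induced factor Manf by 1.28 and the degradation adaptor Sel1l by 1.05. Hspa5 (BiP), the central chaperone, fell more modestly, from 12.52, 12.51 and 12.36 to 11.86, 12.02 and 11.49 (-0.68 ± 0.14, adjusted p = 0.00988). The transcription factors of the response had smaller differences that did not pass: Atf4 at -0.22 (adjusted p = 0.129), Atf6 at -0.08 (0.553) and Xbp1 at 0.15 (0.225).

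Several of these genes carry a known element in the promoter, the endoplasmic reticulum stress element, CCAAT followed after 9 bases by CCACG. The Hspa5 promoter is shown as the reference case, with the fixed letters of the element in capitals, from RefSeq on GRCr8 at chr3:38452766-38453015 on the plus strand, the 250 bases before the start.
Hspa5: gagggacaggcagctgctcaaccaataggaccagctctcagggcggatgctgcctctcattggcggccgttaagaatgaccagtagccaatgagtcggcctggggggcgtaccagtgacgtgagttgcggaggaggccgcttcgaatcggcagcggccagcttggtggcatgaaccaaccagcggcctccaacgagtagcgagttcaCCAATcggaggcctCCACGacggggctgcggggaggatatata
Searched on both strands, the element was found in 15 of 11968 promoter windows (0.125%) and in 8 of the 29 windows of the folding list (27.6%). It contains the CCAAT box, which by itself was found in 38.3% of all windows, 79.3% of the folding list and 74.1% of the lipid synthesis list. The matches are given on the strand that reads CCAAT first, with fixed letters in capitals, to let the spacers be compared with each gene's difference.
Hspa5, chr3:38452973-38452991, plus strand: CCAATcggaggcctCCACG
Hsp90b1, chr7:23012451-23012469, minus strand: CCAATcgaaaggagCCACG
Hsp90b1, chr7:23012347-23012365, plus strand: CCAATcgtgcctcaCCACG
Calr, chr19:40213135-40213153, minus strand: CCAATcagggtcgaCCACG
Canx, chr10:35158069-35158087, minus strand: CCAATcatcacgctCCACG
Dnajc3, chr15:102432534-102432552, plus strand: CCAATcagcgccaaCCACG
Creld2, chr7:121789239-121789257, minus strand: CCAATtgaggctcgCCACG
Xbp1, chr14:84604558-84604576, plus strand: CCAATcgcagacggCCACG
Derl3, chr20:12766601-12766619, plus strand: CCAATaaggaagtcCCACG
Of these 8 genes, 7 fell, by 1.87 (Creld2), 1.83 (Derl3), 1.05 (Dnajc3), 0.86 (Calr), 0.68 (Hspa5), 0.59 (Hsp90b1) and 0.39 (Canx) on the log2 scale, and Xbp1 did not pass. The Canx call had an adjusted p of 0.0138, and of 0.0512 without control 2. Of all 29 folding genes with a window 24 fell, so 7 of 8 was close to the share of the list. Of the 42 windows of the translocon list 0 held the element, although that list also fell. A match describes these letters in this window and does not show that a factor binds there.

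Export from the endoplasmic reticulum fell in parallel. Of 46 genes for translocation into the reticulum, signal cleavage and vesicle transport to the Golgi, 39 fell (84.8%) and 0 rose, with 43 at an unadjusted p under 0.05 and a median of -0.58. Without single arrays 33 to 38 fell, and 15 in the fit of all 12 arrays. Kdelr3, a receptor that returns escaped chaperones, went from 9.66, 9.57 and 9.67 to 7.52, 7.74 and 7.03 (-2.20 ± 0.16). The signal peptidase subunit Sec11c fell by 1.45, the vesicle coat protein Sec24d by 1.42, the translocon-associated Ssr4 by 1.36, the cargo receptor Lman1 by 1.25 and the channel subunit Sec61a1 by 0.80, all on the log2 scale. The highest difference in the list was 0.19.

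**Figure D3:**
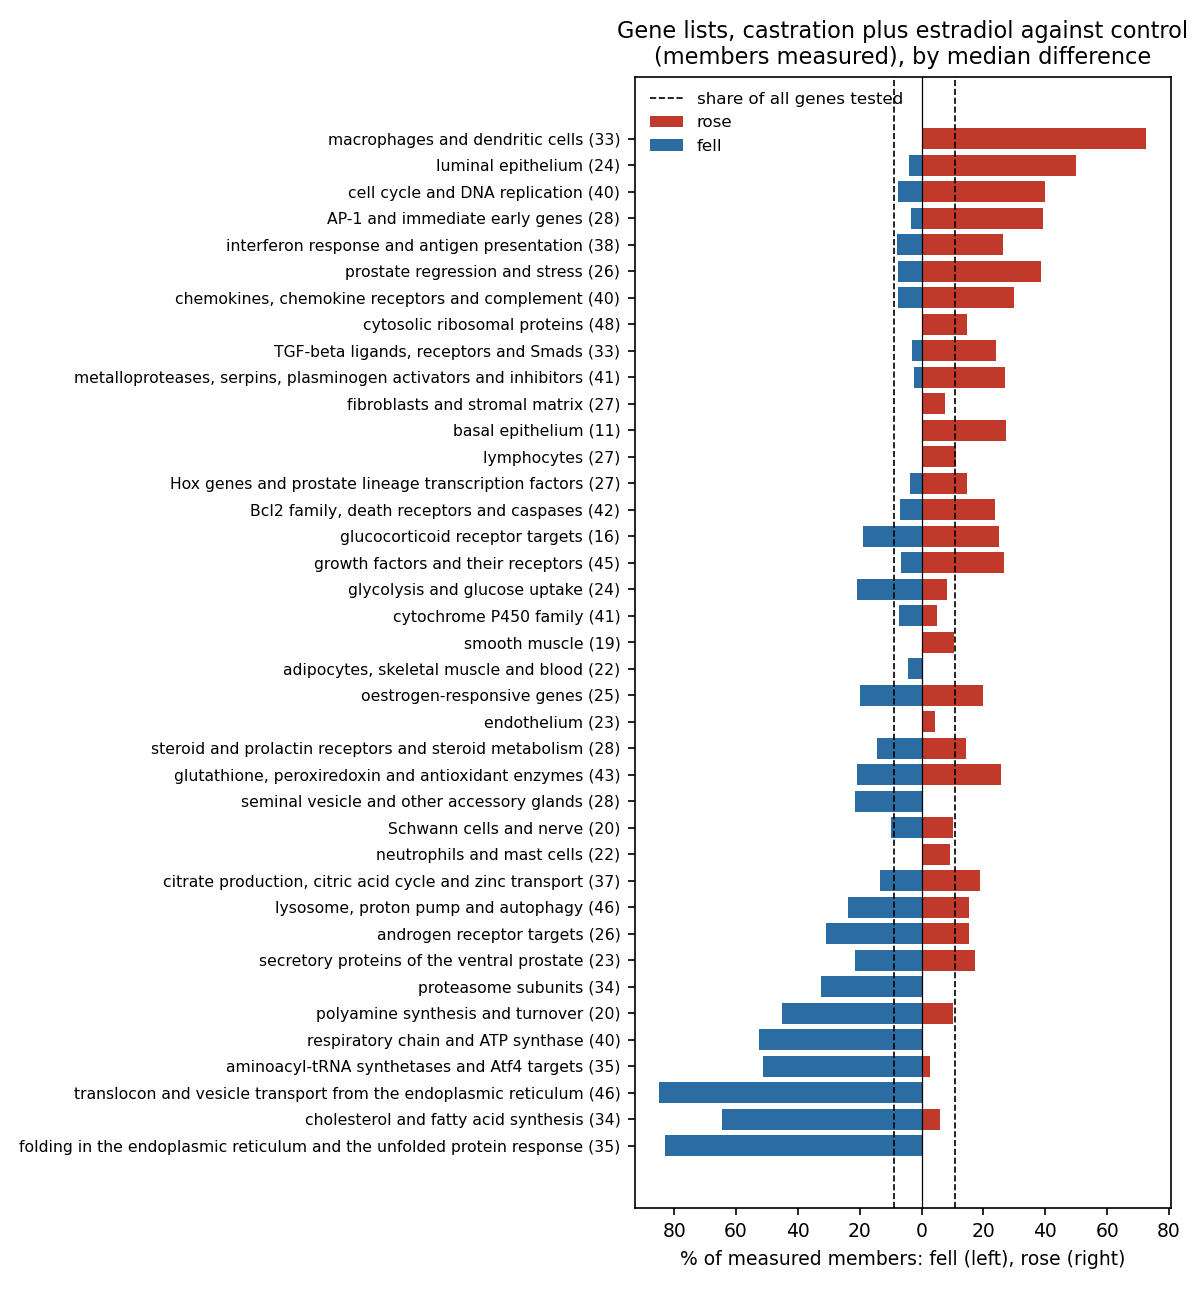
For each of 39 gene lists, the percentage of measured members that fell (blue, left) and rose (red, right) after castration plus estradiol, ordered by the list's median log2 difference, with the number measured in brackets. Dashed lines mark the shares of all 14506 genes, 8.85% fell and 10.9% rose; folding (82.9% fell) and macrophage markers (72.7% rose) lie far beyond them.

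Cholesterol and fatty acid synthesis fell as well. Of 34 measured genes 22 fell and 2 rose, with a median of -0.85. The count of 24 stayed between 22 and 25 without single arrays and was 14 in the fit of all 12 arrays. Scd, a desaturase that makes monounsaturated fatty acids, was at 8.47 on each control array and at 6.09, 6.22 and 5.75 in the combined group (-2.45 ± 0.12, adjusted p = 2.49e-05). Its relative Scd2 fell by 1.81 and the elongase Elovl6 by 2.20 on the log2 scale. On the sterol branch Idi1 fell by 2.13, Acat2 by 2.04, Lss by 1.64, Cyp51 by 1.14, Sqle by 1.10 and Fdps by 0.97. Fasn, which builds palmitate, had levels of 9.58, 9.73 and 9.71 against 9.39, 9.50 and 9.22, and the difference of -0.31 missed the threshold (adjusted p = 0.0646).

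The Insig proteins, which hold the sterol sensor in the endoplasmic reticulum, moved in opposite directions. Insig1 fell from 11.60, 11.68 and 11.51 to 10.71, 10.95 and 10.65 (-0.83 ± 0.10). Insig2 rose from 7.81, 7.96 and 7.78 to 9.09, 9.16 and 9.36 (1.36 ± 0.10). The arrays of both genes were apart between groups, as for 36.9% of all genes. Both were named after their values were seen, so this is no result about them. The sterol regulatory element, TCAC and CCAC with 1 base between, was found on either strand in 130 of 11968 promoter windows (1.09%) and in 0 of 27 windows of this list.

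**Figure D4:**
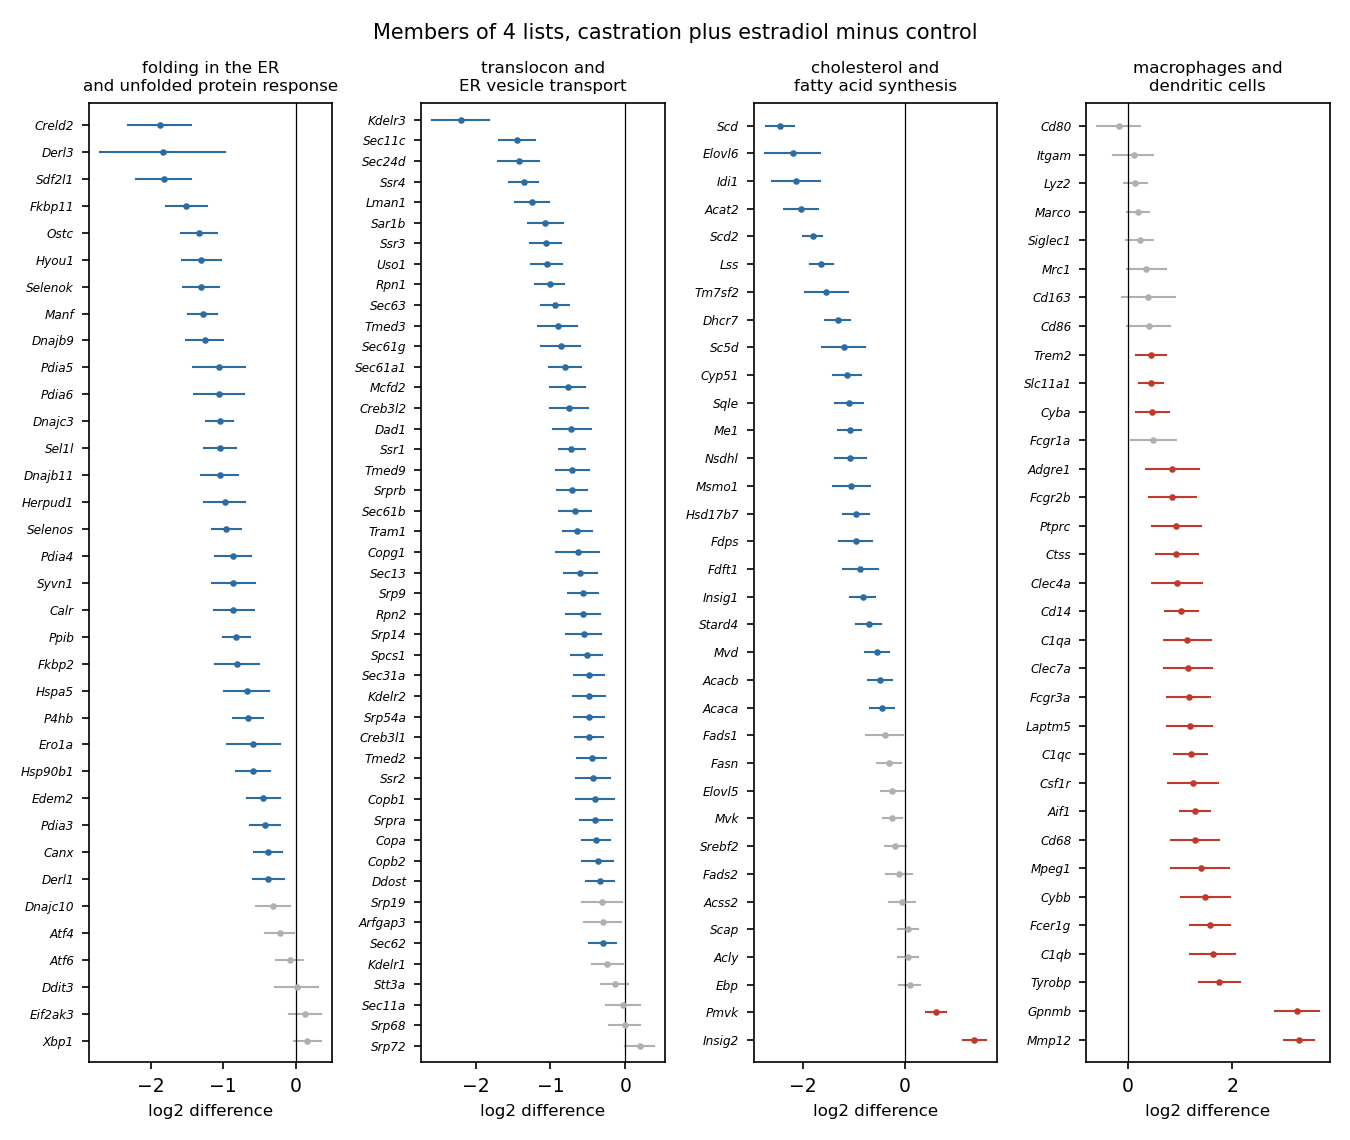
Log2 difference (castration plus estradiol minus control, 3 arrays each) with its 95% interval from limma for each measured member of 4 lists. Blue members fell, red members rose and grey members did not pass; Insig2 (1.36) is the high point of the lipid list, and no macrophage marker fell.

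Transcripts for amino acid, tRNA charging and polyamine metabolism were called mostly as lower. Of 35 aminoacyl-tRNA synthetases and Atf4 targets 18 fell and 1 rose (median -0.40), and 6 fell in the fit of all 12 arrays. The serine synthesis enzyme Psat1 fell from 7.97, 8.96 and 8.64 to 6.43, 6.65 and 6.53 (-1.99 ± 0.22), its partner Phgdh by 0.89 on the log2 scale, the cystine transporter Slc7a11 by 1.59 and the mitochondrial folate enzyme Mthfd2 by 1.2. Polyamines are made in large amounts by the prostate, and 9 of 20 genes of their synthesis and turnover fell while 2 rose. Spermidine synthase Srm fell from 11.56, 11.87 and 11.55 to 10.28, 10.61 and 9.91 (-1.39 ± 0.17), and Amd1, which supplies the aminopropyl donor, fell by 1.27. The methionine salvage enzyme Adi1 fell by 1.52 and the antizyme inhibitor Azin1 by 1.04. Odc1, the entry enzyme of the pathway, fell by 0.33 on the log2 scale (adjusted p = 0.0439), a call that ended without each of the 6 arrays in turn (adjusted p of 0.0581 to 0.149), and with quantile normalization or all probe sets.

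Respiratory chain and ATP synthase subunits fell in 21 of 40 cases, and 0 rose, with 22 at an unadjusted p under 0.05 and a median of -0.30. Leaving out single arrays gave 15 to 21, and the fit of all 12 arrays 5. Cox7b fell from 10.10, 10.25 and 10.03 to 8.42, 8.77 and 8.74 (-1.48 ± 0.12), Atp5mc1 by 1.05 and Ndufa1 by 1.03 on the log2 scale. Of 34 proteasome subunits 11 fell and 0 rose (17 at an unadjusted p under 0.05), led by Psmb6 (-0.69). That count was 6 without combined 1, 7 without control 2 or control 3, 16 with centred medians, 17 without dim genes or with an intensity trend, and 1 in the fit of all 12 arrays. Cytosolic ribosomal proteins did not follow the fall. Of 48 measured 7 rose (14.6%, not far from the 10.9% of all genes) and 0 fell (against 8.85%). By limma 17 had an unadjusted p under 0.05, and the median was 0.20. With quantile normalization 13 rose, and with the replicate block 3. The number called was 2 without control 2 or combined 1, 3 without control 3, 4 without combined 2 or combined 3 and with centred medians, and 0 in the fit of all 12 arrays.

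Glucose use and citrate production showed smaller shifts. Hk2, an inducible hexokinase, fell from 8.33, 8.77 and 8.21 to 7.23, 7.15 and 7.11 (-1.28 ± 0.14). Pfkfb4, a regulator of glycolytic flux outside the list, fell from 8.94, 9.12 and 8.99 to 6.62, 6.80 and 6.52 (-2.37 ± 0.10, adjusted p = 1.13e-05). The lactate transporter Slc16a1 rose by 1.17 ± 0.15. Of 24 glycolysis genes, 5 fell and 2 rose. The count of 7 was 4 without control 2 and 2 in the fit of all 12 arrays. Among 37 genes of citrate production, the citric acid cycle and zinc transport, 7 rose and 5 fell. These 12 became 7 without control 2 or control 3, 6 without combined 1 and 2 in the fit of all 12 arrays. Zinc accumulates in this gland, and the zinc exporter Slc30a2 rose from 6.02, 5.96 and 5.75 to 7.99, 6.79 and 7.28 (1.44 ± 0.26), with metallothioneins Mt1 (0.95) and Mt2A (0.79), which bind zinc, also higher.

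While the secretory machinery fell, markers of luminal epithelium were higher. Of 24 measured luminal markers 12 rose and 1 fell, with a median of 0.44. The count of 13 was 13 or 14 without any single array, and the mean level of the list went from 8.80 to 8.92 in controls to 9.30 to 9.43 in the combined group. Krt19, a keratin of simple epithelia, rose from 9.57, 9.09 and 9.71 to 11.37, 11.18 and 11.29 (1.82 ± 0.16). Ocln, a tight junction protein, rose from 9.23, 9.14 and 9.24 to 10.96, 10.70 and 11.08 (1.71 ± 0.11). Krt8 (1.06) and Krt18 (0.87), the paired keratins of luminal cells, Cldn3 (1.23), Cldn4 (1.15) and Epcam (0.61) rose too. Hoxb13, a homeobox factor of prostate identity, was the member that fell (-0.71 ± 0.13). In tissue extracts a change in the number of cells of a type cannot be told apart from a change in RNA per cell.

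Stromal and vascular markers showed few calls. Among 19 smooth muscle markers 2 rose, Vcl (0.65) and Pdlim3 (0.75), and the contractile actin Acta2 was at 11.84, 11.66 and 11.70 against 11.70, 11.57 and 12.10 (0.06, adjusted p = 0.821). Without combined array 3, 6 smooth muscle markers passed, 2 higher and 4 lower. Of 27 fibroblast and matrix genes 2 rose, of which Postn went from 5.84, 5.41 and 5.31 to 6.62, 6.47 and 6.85 (1.12 ± 0.16); the count was 1 without control 2, control 3, combined 1 or combined 3 and 5 without combined 2. A single one of 23 endothelial markers passed, 0 passed without control 2 or any combined array, and without control 3 the marker called was lower. Of 11 basal markers 3 rose, led by Krt15 (1.24 ± 0.22); 1 passed without combined 1 and 2 without control 2 or combined 3. Schwann cell and nerve markers gave 2 rises and 2 falls among 20. Adipocyte, skeletal muscle and blood markers gave 1 fall among 22, Acta1 (-0.64). This call was lost without control 1, control 2, control 3, combined 1 or combined 2. Of 27 Hox genes and lineage factors 4 rose and 1 fell, among them Runx1, from 8.78, 8.59 and 8.83 to 9.46, 9.38 and 9.63 (0.75 ± 0.10). That count of 5 was 2 without control 2 or control 3, 3 without combined 3 and 0 in the fit of all 12 arrays.

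Several growth factor receptors rose, among them Erbb2, Erbb3, Erbb4 and Met. Erbb3 went from 8.24, 8.03 and 8.04 to 9.96, 9.74 and 10.15 (1.84 ± 0.12, adjusted p = 6.12e-05). Met, the hepatocyte growth factor receptor, was at 7.67, 6.67 and 6.57 in controls and 9.07, 8.66 and 9.27 in the combined group (2.03 ± 0.28). Control array 1 was the highest control for Met and still lay below the treated arrays. Erbb2 rose by 0.80, Erbb4 by 0.70 and Igf1r by 0.63, while the ligand Igf1 missed the threshold at -0.33 (adjusted p = 0.263). In the whole list of 45 growth factors and receptors 12 rose and 3 fell, a count of 15 that became 9 without control 2, 7 without combined 1 and 4 in the fit of all 12 arrays.

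Genes known from prostate regression and the immediate early response rose in part. Clu (clusterin), the classic transcript of the regressing prostate, rose from 11.03, 10.67 and 10.58 to 12.89, 12.70 and 12.78 (2.03 ± 0.13, adjusted p = 4.74e-05). Gadd45b, a stress-response gene, rose from 7.64, 7.46 and 7.30 to 9.49, 9.18 and 9.42 (1.90 ± 0.12). Of 26 regression and stress genes 10 rose and 2 fell. The count of 12 was 7 without control 3 or combined 1 and 6 in the fit of all 12 arrays. Among 28 AP-1 and immediate early genes 11 rose and 1 fell (median 0.35), and 5 rose in the fit of all 12 arrays. Fosl2 (1.57), Egr1 (1.34), Jun (1.24), Jund (1.01), Myc (0.68) and Junb (0.64) rose. Fos itself was at 6.13, 6.09 and 6.27 against 6.12, 6.24 and 5.99, with overlapping arrays and a difference of -0.05 (adjusted p = 0.786).

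Proteases and their inhibitors included some of the steepest rises. Of 41 metalloproteases, serpins, plasminogen activators and inhibitors 11 rose and 1 fell, with a median of 0.20, and 6 passed in the fit of all 12 arrays. Mmp12, the macrophage elastase, rose from 5.78, 6.15 and 5.91 to 9.31, 9.03 and 9.34 (3.28 ± 0.13). Mmp15 went from 7.98, 8.45 and 8.17 to 10.68, 10.54 and 10.83, and the urokinase Plau rose by 1.36. Timp3, an inhibitor bound to the matrix, rose by 1.01 ± 0.18, and Timp4 fell from 9.48, 9.36 and 9.44 to 8.28, 7.74 and 7.65 (-1.54 ± 0.16). The promoter stretches of Mmp12 (RefSeq on GRCr8, chr8:12866532-12866591, plus strand) and Gpnmb (chr4:79341008-79341067, plus strand), from 120 to 61 bases before the start, are shown because both genes rose about equally and both hold the AP-1 motif TGANTCA, in capitals, at the same distance of 87 bases.
Mmp12: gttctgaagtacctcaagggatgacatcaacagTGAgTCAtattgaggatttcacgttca
Gpnmb: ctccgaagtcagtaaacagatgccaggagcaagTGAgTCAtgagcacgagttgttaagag
TGANTCA was found on either strand in 747 of 11968 promoter windows (6.24%), in 8 of 30 windows of the protease list (26.7%) and in 2 of the 9 windows of its members that rose. The match did not sort the genes by response. Mmp3 (-0.01), Mmp7 (0.77), Mmp10 (0.05) and Mmp13 (-0.10) carry it as well and did not pass.

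Among death and survival genes of the Bcl2 and caspase families, rises were called more often than falls. Bcl2, which blocks apoptosis, rose from 8.11, 8.12 and 7.62 to 8.81, 8.78 and 9.40 (1.04 ± 0.20, adjusted p = 0.00709). Its relative Bcl2a1 (0.96) rose, as did the death ligand Tnfsf10, from 7.23, 6.52 and 6.75 to 7.93, 7.51 and 8.12 (1.02 ± 0.21). Mcl1, another relative, was measured by 2 probe sets with differences of 0.61 and 0.053, and only the first passed. The death receptor Fas missed the threshold at 0.27 (adjusted p = 0.172). Of 42 measured 10 rose (23.8%, against 10.9% of all genes) and 3 fell (7.14%, against 8.85%). The count of 13 became 8 without control 2 or combined 1, 7 without control 3 and 1 in the fit of all 12 arrays. For TGF-beta signalling 8 of 33 members rose and 1 fell, and 2 passed in the fit of all 12 arrays. Fst, which binds activin, rose from 6.18, 6.51 and 6.02 to 7.71, 7.29 and 8.24 (1.51 ± 0.23), and the receptor Bmpr1b fell by 0.73 on the log2 scale. Tgfb1 rose by 0.61 (adjusted p = 0.0181), a call that ended without control 2, control 3, combined 1 or combined 3 (adjusted p of 0.0546 to 0.0728).

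Cell cycle transcripts of the late phases rose from low levels. Top2a, a DNA topoisomerase of dividing cells, was at 4.82, 5.05 and 5.03 in controls and 6.42, 5.78 and 5.79 in the combined group (1.03 ± 0.17). Plk1 (1.01), Ccna2 (1.02) and Bub1 (0.97), which act in mitosis and the phases before it, were highest on combined array 1, as was Top2a. Ccnd1, the cyclin of early cycle entry, fell from 9.42, 9.51 and 9.57 to 8.93, 8.64 and 8.49 (-0.81 ± 0.12). In the list of 40, 16 rose and 3 fell, with a median of 0.40. The count of 19 was 8 without combined 1, 9 without control 2, 11 without control 3 or combined 3, 10 with all probe sets and 3 in the fit of all 12 arrays. Most members were dim, and without dim genes 11 members remained, of which 2 rose and 4 fell, with a median of -0.032. Median shifts of the list from the control mean were 0.59, 0.17 and 0.26 on combined arrays 1, 2 and 3.

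Macrophage and phagocyte markers rose together. Of 33 measured 24 rose (72.7%, against 10.9% of all genes) and 0 fell by limma, 25 had an unadjusted p under 0.05, and the median was 0.94. Their mean level lay between 5.99 and 6.37 in controls and between 6.88 and 7.31 in the combined group. The count was 17 to 26 without single arrays and 10 in the fit of all 12 arrays. Gpnmb, a membrane glycoprotein of phagocytes, rose from 6.18, 6.03 and 5.74 to 9.51, 8.84 and 9.32 (3.23 ± 0.18). Tyrobp, a signalling adaptor, rose from 7.42, 6.92 and 6.79 to 8.79, 8.59 and 8.98 (1.75 ± 0.17). Fcer1g (1.57), the oxidase subunit Cybb (1.48), Cd68 (1.29), the growth factor receptor Csf1r (1.24) and Cd14 (1.02) rose also. Combined array 2 had the smallest median shift of the 3, 0.70 against 1.11 and 1.25.

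Chemokine and complement genes were called in part, in a list that shares its C1q genes with the macrophage list. Cx3cr1, the fractalkine receptor of monocytes, rose from 7.23, 7.12 and 6.71 to 9.24, 8.61 and 9.28 (2.02 ± 0.20), and its ligand Cx3cl1 from 7.51, 7.14 and 7.41 to 8.87, 8.50 and 8.81 (1.37 ± 0.13). The chemokine Cxcl16 (1.89), the complement receptor C3ar1 (1.90) and C1qb (1.62) rose. Of 40 genes 12 rose and 3 fell. The count of 15 became 9 without control 3, 8 without combined 1 and 5 in the fit of all 12 arrays. Interferon response and antigen presentation genes gave 10 rises and 3 falls among 38. That count of 13 was 6 without control 2, combined 1 or combined 3, 7 without control 3, 24 without combined 2, 22 with array quality weights and 2 in the fit of all 12 arrays. The falls included Oas1k, from 8.42, 8.58 and 8.82 to 5.74, 5.35 and 5.13, and Ifih1, a sensor of viral RNA, from 10.85, 11.21 and 10.89 to 9.26, 9.16 and 9.48 (-1.68 ± 0.13). The part of the macrophage markers in these differences was not tested. Lymphocyte markers were called in 3 of 27 cases, all higher (11.1%, close to the 10.9% of all genes that rose). The count was 1 without control 2, control 3, combined 1 or combined 3. Neutrophil and mast cell markers were called in 2 of 22, both higher (9.09%, also close to that share). The count was 0 without control 2, combined 1 or combined 3 and 1 without control 1. Without control 3 a single marker was called, and it was lower.

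Antioxidant enzymes changed in both directions. Of 43 measured 11 rose and 9 fell, and 9 passed in the fit of all 12 arrays. The glutathione transferase Gstm7 rose from 10.27, 10.93 and 10.50 to 12.42, 12.52 and 12.53 (1.92 ± 0.15), and Mgst1 (1.54), Gstt2 (1.27) and Gstm1 (0.67) rose as well. Near-identical members of the Gstm family could share signal between probe sets. Prdx6, a peroxiredoxin, fell from 9.81, 9.72 and 10.01 to 8.99, 8.62 and 8.86 (-1.02 ± 0.12), and Gclc, which makes the glutathione precursor, fell by 1.0 on the log2 scale. Among 41 cytochromes P450 2 rose and 3 fell. Besides Cyp4a8, Cyp27a1 fell by 0.90, and Cyp3a9 rose from 3.20, 3.33 and 3.01 to 4.63, 4.22 and 5.62 (1.64 ± 0.30). In the fit of all 12 arrays 2 P450 genes passed, and 1 of 7 without dim genes.

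Lysosomal genes changed in both directions. Atp6v1c2 rose from 8.11, 7.69 and 8.03 to 10.76, 11.35 and 10.97. The broadly expressed pump subunits Atp6v1a (-1.02 ± 0.10) and Atp6v1h (-0.88 ± 0.11) fell. Ctsz, a cathepsin, rose by 0.90. Of 46 genes 11 fell and 7 rose. The count of 18 was 3 in the fit of all 12 arrays. Mean levels of the macrophage markers, given above, differed between the groups in the same arrays. Their part in the lysosomal differences was not tested.

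The combined group was also set against each single treatment, to ask what the second treatment added. Between castration plus estradiol and castration alone 1 gene passed (0.00689%), Gpx3, with 697 genes (4.8%) at an unadjusted p under 0.05. Gpx3 levels were 9.64, 8.87 and 8.73 in controls, 9.26, 9.32 and 9.63 in castrated rats, 10.40, 11.09 and 11.98 in estradiol-treated intact rats and 11.87, 11.60 and 11.19 in the combined group. Both groups given estradiol lay above both groups without it on each array. The combined group exceeded castration by 2.15 (95% interval 1.73 to 2.56, adjusted p = 0.0218). It differed from estradiol alone by 0.39 (-0.46 to 1.25, adjusted p = 0.619). The number of calls against castration was 0 without castrated 1, castrated 2, combined 1 or combined 2 and in the fit of all 12 arrays.

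Between castration plus estradiol and estradiol alone 0 genes passed by limma (0%), with 1146 genes (7.9%) at an unadjusted p under 0.05 and a smallest adjusted p of 0.542. With array quality weights 614 genes passed, and in the fit without estradiol arrays 1 and 2, whose SDs of 1.93 and 2.01 were below those of the other arrays, 2 passed. The median half-width of a 95% interval was 0.521 here and 0.291 against castration. Differences smaller than these could not be resolved, and a lack of calls does not show that the treatments act alike.

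Further genes are described by their values, with no call. They were named by the rules for the comparison with control or, for Timp3, after values were seen, and none passed in these comparisons. An unadjusted interval away from 0 is therefore no evidence of a difference. Of all 14506 genes, 4.8% had an unadjusted p under 0.05 by limma against castration. Inmt exceeded castration by 1.09 (0.55 to 1.62, adjusted p = 0.850) and estradiol by 1.13 (0.48 to 1.78, adjusted p = 0.542), with 9.24, 9.12 and 9.62 in the combined group against 7.74 to 8.69 and 7.75 to 8.78. Timp3 differed by 0.90 from castration (0.32 to 1.48) and by 0.98 from estradiol (0.33 to 1.63). Esr2 was lower than after castration by -0.70 (-1.05 to -0.35), at 6.30, 6.61 and 6.14 against 6.89, 7.0 and 7.27. Pdlim3, a muscle scaffold protein, was at 7.15, 7.02 and 6.76 against 6.25, 5.69 and 6.10 in castrated rats (0.96, 0.58 to 1.35). Cyp3a9 was lower than in castrated rats, by -1.56 (-2.57 to -0.55), and Mep1b by -0.68 (-1.12 to -0.23).

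The levels after the single treatments are given beside those of the combined group for 4 genes. The differences from castration and from estradiol use the same 3 combined arrays, so they share part of their errors. Pbsn stood at 4.96, 4.37 and 4.54 after castration and at 6.28, 4.82 and 9.71 after estradiol. Its difference between combined and castrated groups was 1.25 (-0.04 to 2.55). Clu was at 12.92, 12.62 and 12.85 after castration, 12.24, 12.25 and 12.73 after estradiol and 12.89, 12.70 and 12.78 after both, a difference of -0.01 (-0.28 to 0.26) from castration. Hspa5 differed by 0.06 (-0.28 to 0.40) from castration and by 0.16 (-0.37 to 0.68) from estradiol. Fkbp5 was at 8.81, 9.13 and 8.56 after castration, with a difference of -0.19 (-0.53 to 0.15).

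**Figure D5:**
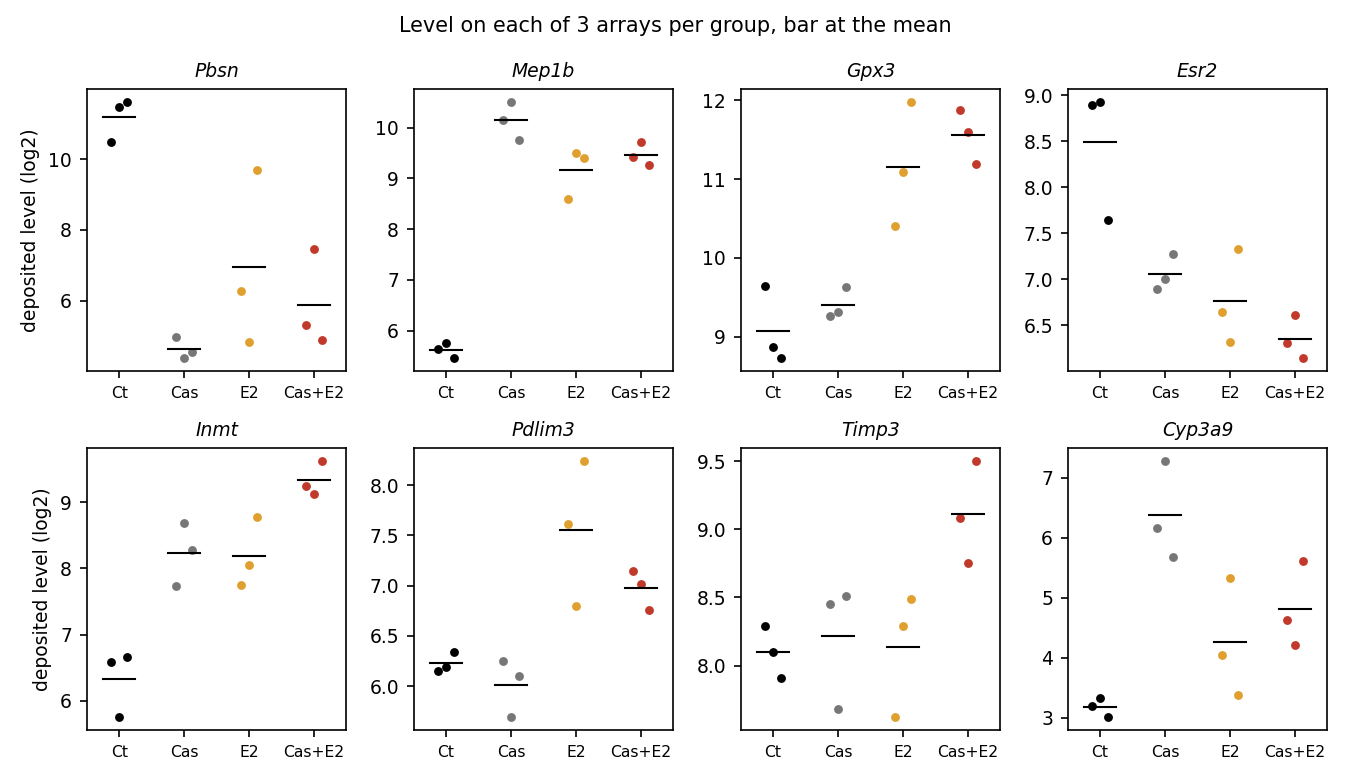
Deposited log2 level of 8 genes on each array of the 4 groups: control (Ct), castration (Cas), estradiol (E2) and both (Cas+E2), with a bar at the mean of 3 arrays and a separate y axis for each gene. Gpx3 is high in both groups given estradiol, and Inmt highest in the combined group at 9.12 to 9.62. Pbsn is below the controls on every treated array, by least on estradiol array 3.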

How the data were processed

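Total RNA (500 ng per array) from rat ventral prostate was hybridised to Affymetrix arrays, 3 per group. The deposited table holds 1 processed value per probe set and array, made by the authors with Affymetrix Expression Console, per the submitters' processing notes. The deposited values, from 0.797 to 13.4, were taken as log2 levels made by the authors with that software, per the submitters' processing notes. Log base, normalization and build: not given in the sources used here. Of 29214 probe sets, 15310 had 1 gene symbol in the platform annotation. Where several probe sets named a gene (527 cases), that of highest average across the 12 arrays stood for it, giving 14506 genes. The values were not normalized again.

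Each comparison was fitted to its own 6 arrays by lmFit and eBayes of limma 3.58.1 (R 4.3.3), with Benjamini-Hochberg adjustment over all genes and a threshold of 0.05; all adjusted p-values are from limma, tested on simulated data first. Errors are standard errors with n = 3 arrays per group, and arrays give no counts, so their number limits the precision. Alternatives were a fit of all 12 arrays, with and without estradiol arrays 1 and 2, a replicate block, quantile normalization, centred medians, a filter on dim genes, other treatments of probe sets, an intensity trend, array weights and leaving out each array. Plots were made with matplotlib 3.10.9.

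The members and gene lists were chosen with earlier results of these data known. Genes named are the 12 largest rises and falls with groups that do not overlap (no placeholder symbols, predicted genes, or olfactory or vomeronasal receptors). Added to these are up to 4 changed members of each list and a fixed panel. Against the single treatments the rule added up to 5 genes past the threshold in each direction, and up to 6 that passed against both. Outside that rule, named after their values were seen, are Adamts1, Apoe, Atf4, Atf6, Atp1b1, Calr, Canx, Cd14, Csf1r, Cx3cl1, Cybb, Cyp51, Dnajc3, Eaf2, Epcam, Fasn, Fcer1g, Fdps, Gclc, Gstm1, Hsp90b1, Hyou1, Igf1r, Impa2, Insig1, Insig2, Junb, Klk1, Krt18, Lman1, Lss, Manf, Mcl1, Mmp10, Mmp13, Mmp3, Mmp7, Myc, Nr3c2, Or2h1b, Or2h2c, Or4c105, Or4c11, Pfkfb4, Phgdh, Plau, Prdx6, Ptpn9, Scd2, Sec61a1, Sel1l, Sgk1, Slc5a8, Sqle, Thrsp, Timp3, Vom1r62 and Xbp1. RefSeq promoters (GRCr8) were matched by symbol for 11968 genes; for 448 with several, the first listed was used.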

Additional observations from a re-analysis of the deposited data

Results flagged for a closer look

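Probe sets with no gene symbol or with several entered no comparison above, and they carried signal of their own. Of 13904 such probe sets, 1146 passed the threshold between castration plus estradiol and control when all probe sets were fitted together by limma (8.24%), 542 of them higher and 604 lower. In the same fit 2379 of 15310 probe sets with 1 symbol passed (15.5%).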

How the results depend on the processing

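Against control, 2871 genes changed. In the fit of all 12 arrays 627 changed, 626 of them among the 2871, and leaving out single arrays gave 1679 to 2721, lowest without combined 1. Other settings gave 2105 to 3831, and changes of at least 2-fold numbered 335 to 490. Against castration alone the single call (also the only one of at least 2-fold) became 0 in the fit of all 12 arrays, with the replicate block and with all probe sets, and ranged from 0 to 1 without single arrays. Against estradiol alone, where no gene passed, 2 did without estradiol arrays 1 and 2 (both at least 2-fold), and 614 with array quality weights (254 at least 2-fold). Of 203 named genes past the threshold, 129 stayed past it in all 16 alternatives and 44 missed it only in the fit of all 12 arrays; 72 in all missed it there, and 25 missed it without some single array. None of the 203 changed direction under these settings, and 7 named genes that had not passed did (Acta2, Esr1, Fos, Mmp3, Mmp10, Mmp13 and Pgr). Of all 2871 genes, 2 did when probe sets of a gene were averaged. The causes were not tested.

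Same-numbered control and combined arrays had correlated deviations of -0.0289, 0.189 and -0.156. Those of combined and castrated arrays were 0.0651, 0.0921 and 0.127, and those of combined and estradiol arrays -0.012, 0.13 and 0.152. Deviations from a mean of 3 arrays depend on each other, so these few values cannot decide whether the replicate numbers pair the arrays. With the replicate block 2469 genes changed against control, 0 against castration and 0 against estradiol, and 6 named calls were lost. The median 95% interval reached 0.239 to either side of a difference from control, so smaller changes are mostly not resolved by 3 arrays a group.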

Other observations

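Olfactory and vomeronasal receptor genes, a very large family that is mostly silent outside sensory epithelium, were left out when the leading genes were chosen. Of 1240 measured, 29 changed between castration plus estradiol and control (2.34%, against 19.8% of all genes), 9 rose and 20 fell. At least 2-fold changes were found in 6. Or4c11 had levels of 8.99, 9.37 and 8.62 in controls and 5.23, 5.89 and 4.73 in the combined group (-3.71 ± 0.29). Or4c105 stood at 5.72, 4.84 and 4.3 against 1.76, 1.68 and 1.7 (-3.24 ± 0.30). Rises were found in Vom1r62 (2.61 ± 0.15), Or2h1b (2.34 ± 0.17) and Or2h2c (1.89 ± 0.18). The arrays of both groups were apart for each of these genes, as for 36.9% of all genes. They were named after their values were seen, so this is no result about them.

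Further genes outside the lists had tightly measured differences and are given as values. Ptpn9, a tyrosine phosphatase, fell from 10.01, 10.41 and 10.22 to 7.89, 8.04 and 7.97 (-2.24 ± 0.11). Slc5a8, a transporter of short-chain fatty acids and lactate, fell from 8.77, 8.9 and 8.89 to 6.61, 7.4 and 6.21 (-2.12 ± 0.25). Atp1b1, a subunit of the sodium pump, fell by 2.10 on the log2 scale. Impa2, an inositol phosphatase, rose from 5.82, 5.82 and 5.91 to 8.06, 7.78 and 8.05 (2.11 ± 0.10). Thrsp, a gene of fat synthesis, rose from 5.02, 5.82 and 6.05 to 8.1, 7.33 and 8.32 (2.29 ± 0.31), against the direction of most lipid synthesis genes.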
